A study of Homo sapiens with 13 samples.

Results

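The integrin and laminin genes were followed through 6 lists of chromatin regions mapped in MDA-MB-231 cells, an established human line of triple-negative, basal B breast cancer. Protein-coding genes named for an integrin alpha chain (18 genes), an integrin beta chain (8 genes) or a laminin alpha, beta or gamma chain (11 genes) were taken, which gave 37 of the 19881 protein-coding genes annotated on chromosomes 1 to 22, X and Y. They were selected by name. Unperturbed cells of this single line, grown under standard culture conditions, were the only material, so the groups of the study were antibodies and not conditions. Chromatin was immunoprecipitated and sequenced with antibodies to H3K4me1, H3K4me3, H3K27ac, RNA polymerase II (Pol II) and CTCF, each in 2 libraries. For p300/CBP the immunoprecipitations were pooled into 1 library. The 2 input libraries were not used here. Each list held the positions of its regions in the human genome build hg19, without a height, score or read count, and the 2 libraries of an antibody had been merged before the regions were called. Depth was therefore unknown, no error between libraries could be given, and no difference reported here was tested.

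Integrins are cell surface receptors made of 1 alpha and 1 beta chain that tie the cytoskeleton to the extracellular matrix, and laminins are trimers of 1 alpha, 1 beta and 1 gamma chain that build the basement membrane on which epithelial cells rest. In breast epithelium, basal cells attach to laminin through integrins of the ITGA3, ITGA6, ITGB1 and ITGB4 chains, and tumour cells must cross this sheet to invade. H3K4me3 is typical of promoters and H3K4me1 of enhancers, H3K27ac accompanies activity at both, p300 and CBP are the acetyltransferases that deposit H3K27ac, and CTCF binds insulators and loop anchors.

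A promoter was taken as the 3 kb window centred on the transcription start site (TSS) of a gene's canonical transcript, and 1 shared bp was enough to count a region. Windows with H3K27ac were treated as candidate active promoters. A width given for a start is that of the widest region of the list touching its window, and some windows held more than 1 region. H3K27ac was present at 19 of the 37 genes, beside 61.5% of all protein-coding genes. H3K4me3 was present at 20, beside 62.7% of all genes, and both marks were present at 18, beside 60.1%. Pol II lay in the window of 19 genes, beside 58.4% of all genes, and H3K4me1 in that of 25, beside 59.4%. CTCF was found at 7 starts (17.6% of all genes) and p300/CBP at 1, that of LAMB3 (0.704% of all genes). The shares of the 37 genes with H3K27ac (51.4%), H3K4me3 (54.1%) and Pol II (51.4%) lay below those of all genes, a difference of a few genes that was not tested. Laminin genes carried H3K27ac at 7 of 11 starts and integrin genes at 12 of 26.

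**Figure D1:**
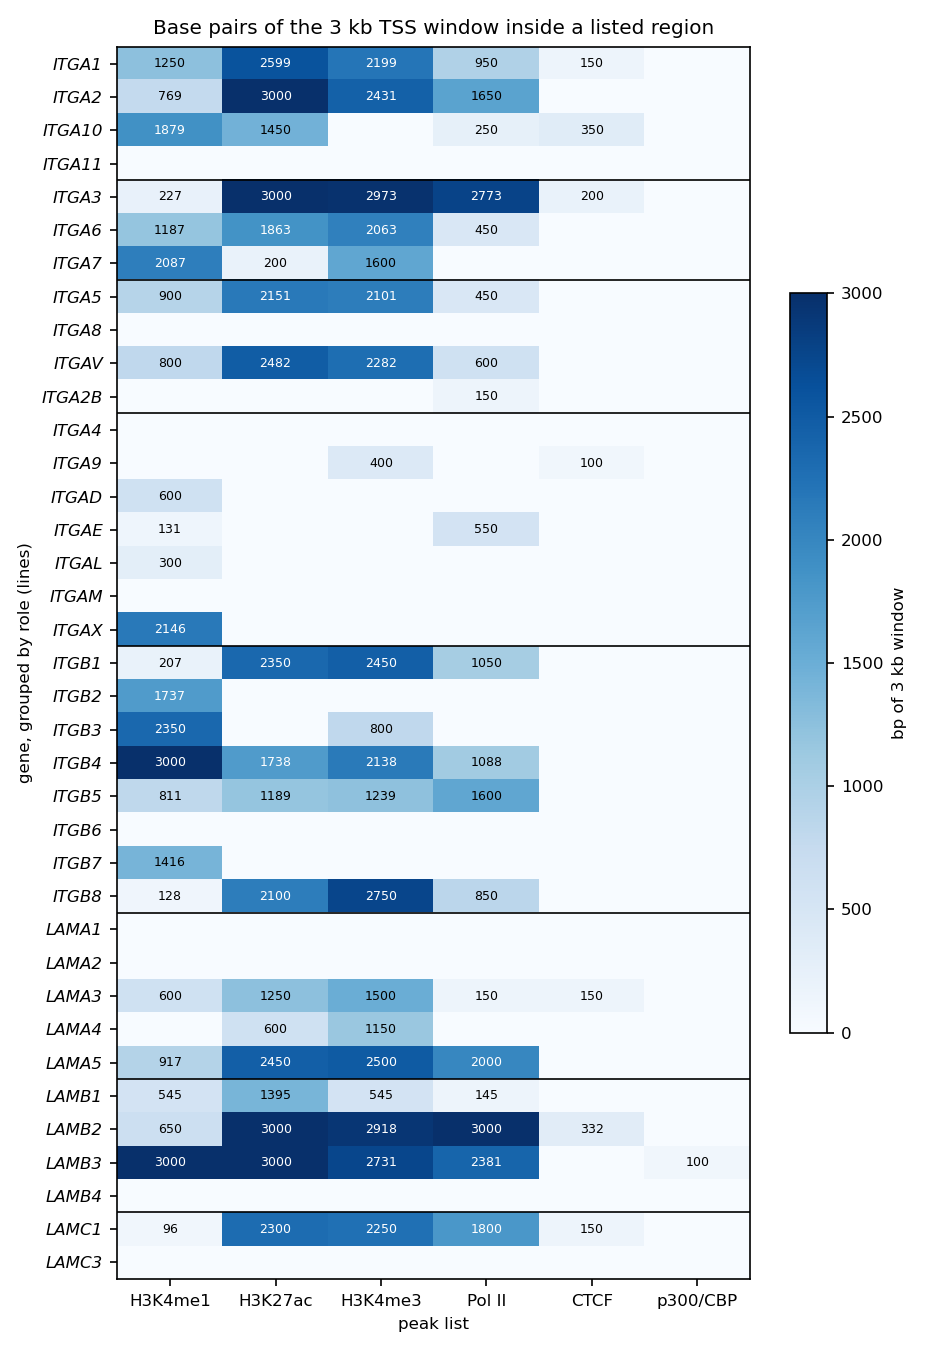
Base pairs of the 3 kb window around each canonical TSS that lie inside a listed region, for the 37 genes (rows, grouped by role) and the 6 lists (columns); empty cells are 0 bp. H3K27ac covers the whole window at ITGA2, ITGA3, LAMB2 and LAMB3, the 7 alpha chains of leukocyte and related integrins have no H3K27ac, and 9 rows are empty in all 6 columns.

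Among the alpha chains of collagen receptors, H3K27ac was present at 3 of 4 starts. ITGA1 (chr5:52083750-52255039, plus strand) had an H3K4me3 region of 2300 bp, an H3K27ac region of 2750 bp and a Pol II region of 950 bp at its start, which it shares with PELO. ITGA2, the alpha chain of the main collagen receptor of epithelial cells and platelets, had 2900 bp of H3K4me3, 3750 bp of H3K27ac and 1650 bp of Pol II. ITGA10, a chain known from cartilage, had H3K27ac over 1450 bp of its window, in regions of which the widest was 750 bp. It had 250 bp of Pol II and a CTCF peak but no H3K4me3. It was the only one of the 19 genes with H3K27ac that lacked H3K4me3, and its span (the gene body and 50 kb on either side) held the starts of 8 other protein-coding genes. No region of any list touched the window of ITGA11, a fibroblast collagen receptor chain.

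The 3 alpha chains of laminin receptors were all marked by H3K27ac and H3K4me3, but over very different lengths. ITGA3 (chr17:48133332-48167845, plus strand), which pairs with ITGB1 to bind laminins of epithelial basement membranes, lay under an H3K27ac region of 22350 bp, an H3K4me3 region of 7750 bp and a Pol II region of 29200 bp. Among all TSS windows with such a region these widths ranked at percentiles 99.9, 99.2 and 99.7. ITGA6, which pairs with ITGB4 in hemidesmosomes and with ITGB1 elsewhere, had a 2800-bp H3K27ac and a 3100-bp H3K4me3 region, with 450 bp of Pol II. At ITGA7, the laminin receptor chain of muscle, the H3K27ac region was 200 bp wide, the narrowest of the 19, and Pol II was not listed.

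Of the 4 alpha chains that recognise the RGD sequence of fibronectin and related ligands, ITGA5 and ITGAV were marked and ITGA8 and ITGA2B were not. ITGA5, the fibronectin receptor chain, had 2650 bp of H3K27ac, 2300 bp of H3K4me3 and 450 bp of Pol II. ITGAV, the shared alpha chain of the vitronectin receptors, had 2650 bp, 3100 bp and 600 bp. ITGA8 had none of the 6 lists at its start, and ITGA2B, the fibrinogen receptor chain of platelets, had a single 150-bp Pol II region. The 7 alpha chains of leukocyte and related integrins (ITGA4, ITGA9, ITGAD, ITGAE, ITGAL, ITGAM and ITGAX) had no H3K27ac at any start. ITGA4 and ITGAM were touched by no list. ITGAD, ITGAL and ITGAX carried H3K4me1 alone, ITGAE carried H3K4me1 and 550 bp of Pol II, and ITGA9 carried 400 bp of H3K4me3 and a CTCF peak.

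The beta chains divided in the same way. ITGB1, the partner of most alpha chains, had 3450 bp of H3K27ac, 4300 bp of H3K4me3 and 1050 bp of Pol II at its start. ITGB4, the hemidesmosome chain, had 2700 bp, 2500 bp and 1600 bp, and ITGB5, a partner of ITGAV, had 1250 bp, 1350 bp and 1600 bp. ITGB8, another partner of ITGAV, had 2100 bp, 2750 bp and 850 bp. No H3K27ac was listed at the canonical starts of ITGB2, the leukocyte beta chain, ITGB3, the platelet and vitronectin receptor chain, ITGB6, an epithelial partner of ITGAV, and ITGB7, a lymphocyte chain. ITGB2 and ITGB7 carried H3K4me1 alone, and ITGB6 carried none of the lists.

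ITGB3 (chr17:45331193-45391109, plus strand) and ITGA9 were the 2 genes with H3K4me3 but no H3K27ac at the start, a state found at 2.68% of all genes. The H3K4me3 region of ITGB3 was 800 bp wide, at percentile 5.69 among all TSS windows with such a region, and it lay inside a 2350-bp H3K4me1 region. No Pol II was listed anywhere in its body. The start of ITGB3 lies in CpG-rich DNA, with an observed over expected CpG ratio of 0.910 in the 1 kb around it, and ITGA9 had a ratio of 0.926.

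The laminin genes with the widest regions stood beside others with narrow ones. LAMB3 (chr1:209788215-209825770, minus strand), a beta chain of epithelial basement membranes, had the widest H3K4me3 region of the 37 genes, with 10100 bp, and an H3K27ac region of 16000 bp. Its Pol II region of 42800 bp ran from 0.880 kb upstream of the start to 41.9 kb downstream and covered 100% of the body. At LAMA3, an alpha chain of the same membranes, the H3K4me3 region was 1500 bp, the H3K27ac region 1250 bp and the Pol II region 150 bp.

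LAMB3 had its wide regions at a CpG-poor start. Its observed over expected CpG ratio was 0.224, whereas the median of all genes with H3K27ac at the start was 0.787. LAMB2 (0.370) and ITGA10 (0.117) were the other CpG-poor starts among the marked genes, and over the 19 marked genes the median was 0.730. The 250 bases before the LAMB3 start (chr1:209825771-209826020, hg19, minus strand) are shown for this state. They held 1 match to GGGCGG on either strand, the core of the GC box to which SP1 binds, which is in capitals. They held no TGANTCA, in which N is any base, so that it takes in the sites TGACTCA and TGAGTCA bound by AP-1 transcription factors and covers both strands.

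LAMB3 promoter: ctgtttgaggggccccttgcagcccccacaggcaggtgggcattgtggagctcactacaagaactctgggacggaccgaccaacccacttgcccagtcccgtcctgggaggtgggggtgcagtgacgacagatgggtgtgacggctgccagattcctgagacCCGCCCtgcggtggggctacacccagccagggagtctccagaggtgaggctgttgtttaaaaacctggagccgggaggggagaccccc

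TGANTCA occurred in the 250 bases before the start of 3 of the 37 genes and of 4.69% of all genes. GGGCGG occurred in those of 22 of the 37 and of 59.1% of all genes. These are matches of letters on either strand and not binding sites.

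**Figure D2:**
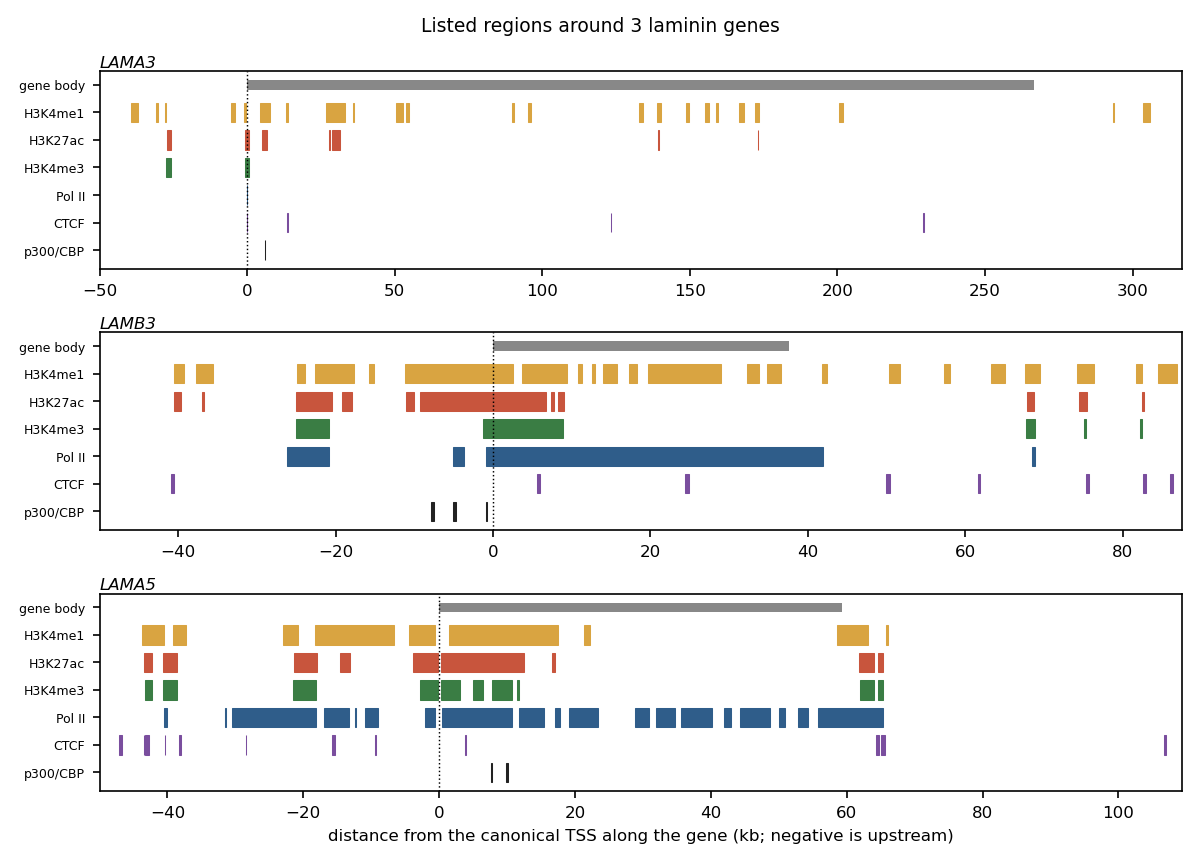
Regions of the 6 lists around LAMA3, LAMB3 and LAMA5 by distance from the canonical TSS (dotted line) in kb along the gene, with the gene body in grey. Pol II covers the whole LAMB3 body, much of the LAMA5 body (67.1%) and only 150 bp at the LAMA3 start, where the dotted line overlies it. The p300/CBP peaks lie upstream of the LAMB3 start and downstream of the other 2.

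Among the other laminin alpha chains, LAMA5, the most widespread chain of adult epithelia, had 12200 bp of H3K27ac, 2850 bp of H3K4me3 and 10350 bp of Pol II. LAMA4, a chain of vessel and muscle basement membranes, had 600 bp of H3K27ac and 1150 bp of H3K4me3 without H3K4me1 or Pol II. LAMA1 and LAMA2, the chains of embryonic and of muscle basement membranes, had none of the lists. The beta chain genes LAMB1 and LAMB2 were marked, LAMB1 with 9500 bp of H3K27ac but 350 bp of Pol II, and LAMB2 with 3350 bp of H3K27ac and 6250 bp of Pol II. LAMC1, the gamma chain of most laminins, had 2650 bp of H3K27ac, 2750 bp of H3K4me3 and 1800 bp of Pol II. LAMB4 and LAMC3 had none of the lists at their starts.

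Altogether 9 of the 37 starts (ITGA4, ITGA8, ITGA11, ITGAM, ITGB6, LAMA1, LAMA2, LAMB4 and LAMC3) were touched by no list, beside 28.0% of all genes. The 18 starts without H3K27ac were not of 1 kind of sequence. Their median CpG ratio was 0.361, near the 0.345 of all genes without H3K27ac, but ITGA4 (0.873), ITGA8 (0.740), LAMA1 (0.802) and LAMC3 (0.824) lay in the CpG-rich range of the marked genes.

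Pol II spread over the body was seen at few of the genes. At least 50% of the body lay under Pol II regions at LAMB3 (100%), ITGA3 (94.1%), LAMA5 (67.1%) and LAMB2 (53.8%), which is 4 of 37, beside 6.62% of all genes. Short genes reach this share more easily, and LAMB2 is the shortest of the 37. Among the 5543 genes between 36.5 and 122 kb, the middle of the length range of the 37, the share was 0.577%, and 2 of the 19 integrin and laminin genes of this length reached it (LAMB3 and LAMA5). The median of the 19 genes with H3K27ac was 1.69%, below the 2.70% of all genes with H3K27ac, so that most of them had Pol II at the start and little in the body. ITGB4 had 13.6% and ITGB1 9.41% of the body under Pol II, whereas ITGA2 had 1.69%, ITGAV 0.290%, LAMA3 0.0315% and ITGB8 0%. The body of ITGB1 reached 47.6 kb upstream of its canonical start. Its widest Pol II region lay 61.7 to 67.5 kb downstream, with none listed between the start and that region.

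**Figure D3:**
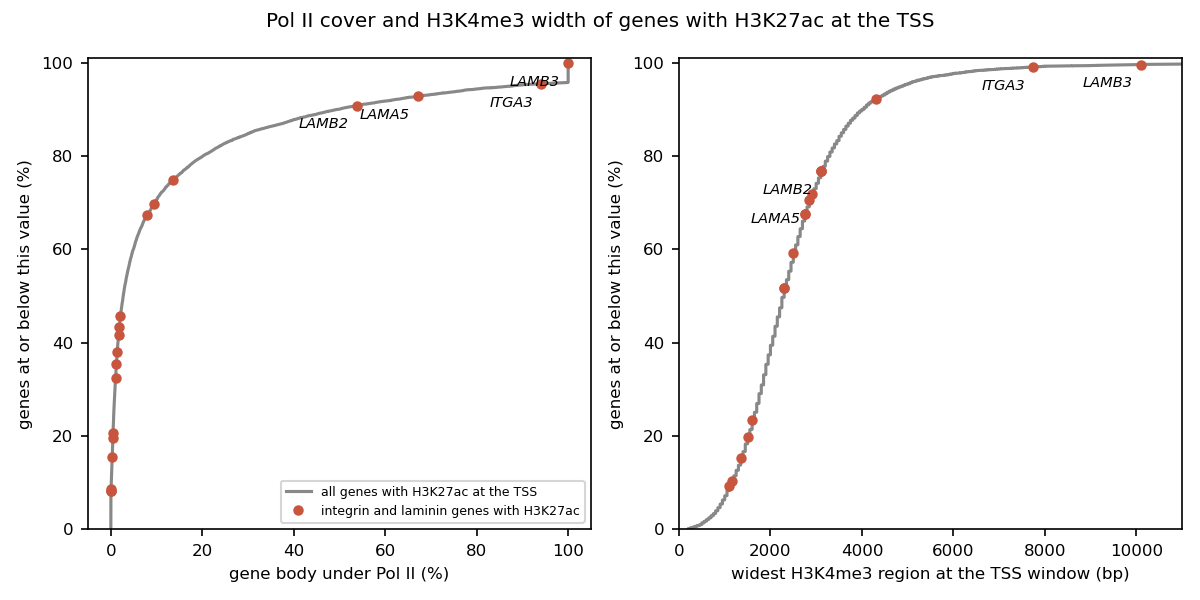
Cumulative share of all 12218 genes with H3K27ac at the TSS (grey line) and the integrin and laminin genes among them (points), by percent of the gene body under Pol II (left) and by width in bp of the widest H3K4me3 region at the TSS window (right, where the axis ends before the widest regions of other genes). ITGA3 and LAMB3 lie at the far right of both panels, and most of the other points lie at low Pol II cover.

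Several genes have more than 1 annotated start. Starts of basic transcripts at least 1 kb apart were counted separately, which gave 45 starts for the 37 genes, with more than 1 at 7 genes. The canonical start of ITGB2 (chr21:46305868-46351904, minus strand) carried H3K4me1 alone, but a start 7.97 kb upstream lay under 3800 bp of H3K4me3, 8600 bp of H3K27ac and 8000 bp of Pol II, and a p300/CBP peak lay in its window. The remaining start, 9.44 kb downstream of the canonical one, lay under 7800 bp of H3K27ac and 7550 bp of Pol II and had a CTCF peak but no H3K4me3 within its own window. The lists carry no strand, so these regions could not be given to 1 transcript. The start of the noncoding antisense gene ITGB2-AS1 falls in the canonical window, where H3K4me1 alone was listed.

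LAMA3 showed the opposite arrangement. Its long form starts at the canonical TSS, and its short form, the one typical of epithelia, starts far inside the gene. The long-form start carried all lists except p300/CBP, and the short-form start, 184 kb downstream, carried none of the 6. LAMA2 had a start 608 kb downstream of the canonical one, near the end of the gene, with 3600 bp of H3K27ac, 300 bp of H3K4me3, 800 bp of Pol II and a p300/CBP peak. The alternative starts of ITGA7 (4.51 kb upstream), ITGAV (10.1 kb downstream) and ITGB7 (6.81 kb downstream) carried no H3K27ac. The 2 starts of LAMB1, 1.02 kb apart, were both marked by the same 9500-bp H3K27ac region.

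Counted as complexes, 10 of the 24 known integrin pairs had H3K27ac and H3K4me3 at the canonical starts of both chains. They were the pairs of ITGB1 with ITGA1, ITGA2, ITGA3, ITGA5, ITGA6, ITGA7 and ITGAV, those of ITGAV with ITGB5 and ITGB8, and ITGA6 with ITGB4. Pol II was also present at both starts of 9 of them, the exception being ITGA7 with ITGB1. Neither chain was marked in 7 pairs, which were the 4 pairs of ITGB2, the 2 pairs of ITGB7 and the platelet pair of ITGA2B and ITGB3. Of the 11 laminin trimers counted, 6 had all 3 starts marked, and each of the 11 had at least 1 marked start. The unmarked chain was LAMA1 or LAMA2 in the 5 incomplete trimers, joined by LAMC3 in 1 of them. With Pol II required as well, 4 trimers were left, because LAMA4 had none. No trimer counted held LAMB3, and LAMA3 was counted by its long-form start alone.

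Candidate active enhancers (cAEs) were H3K4me1 regions that shared at least 1 bp with H3K27ac and touched no canonical promoter window, and those without H3K27ac were candidate inactive enhancers (cIEs). The spans of the 37 genes held 119 cAEs and 198 cIEs, each counted once, although 7 of the cAEs lay in the spans of 2 neighbouring members (ITGA1 and ITGA2, ITGAD and ITGAX, LAMB1 and LAMB4). At least 1 cAE was present in the span of 33 genes, beside 69.0% of all genes, and the 4 without were ITGA4, ITGA8, ITGA9 and ITGAM. The genes are long, with a median of 81.7 kb against 27.6 kb for all genes, so densities were compared. The joined spans held 16.2 cAEs per Mb, against 10.5 per Mb in those of all genes. The median share of the span inside cAEs was 5.64%, against 2.06% for all genes. Genes with H3K27ac at the start had a median share of 9.87%, against 3.05% for all genes with this mark. A cAE in a span need not act on the gene named, since 31 of the 37 spans held the start of another protein-coding gene.

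**Figure D4:**
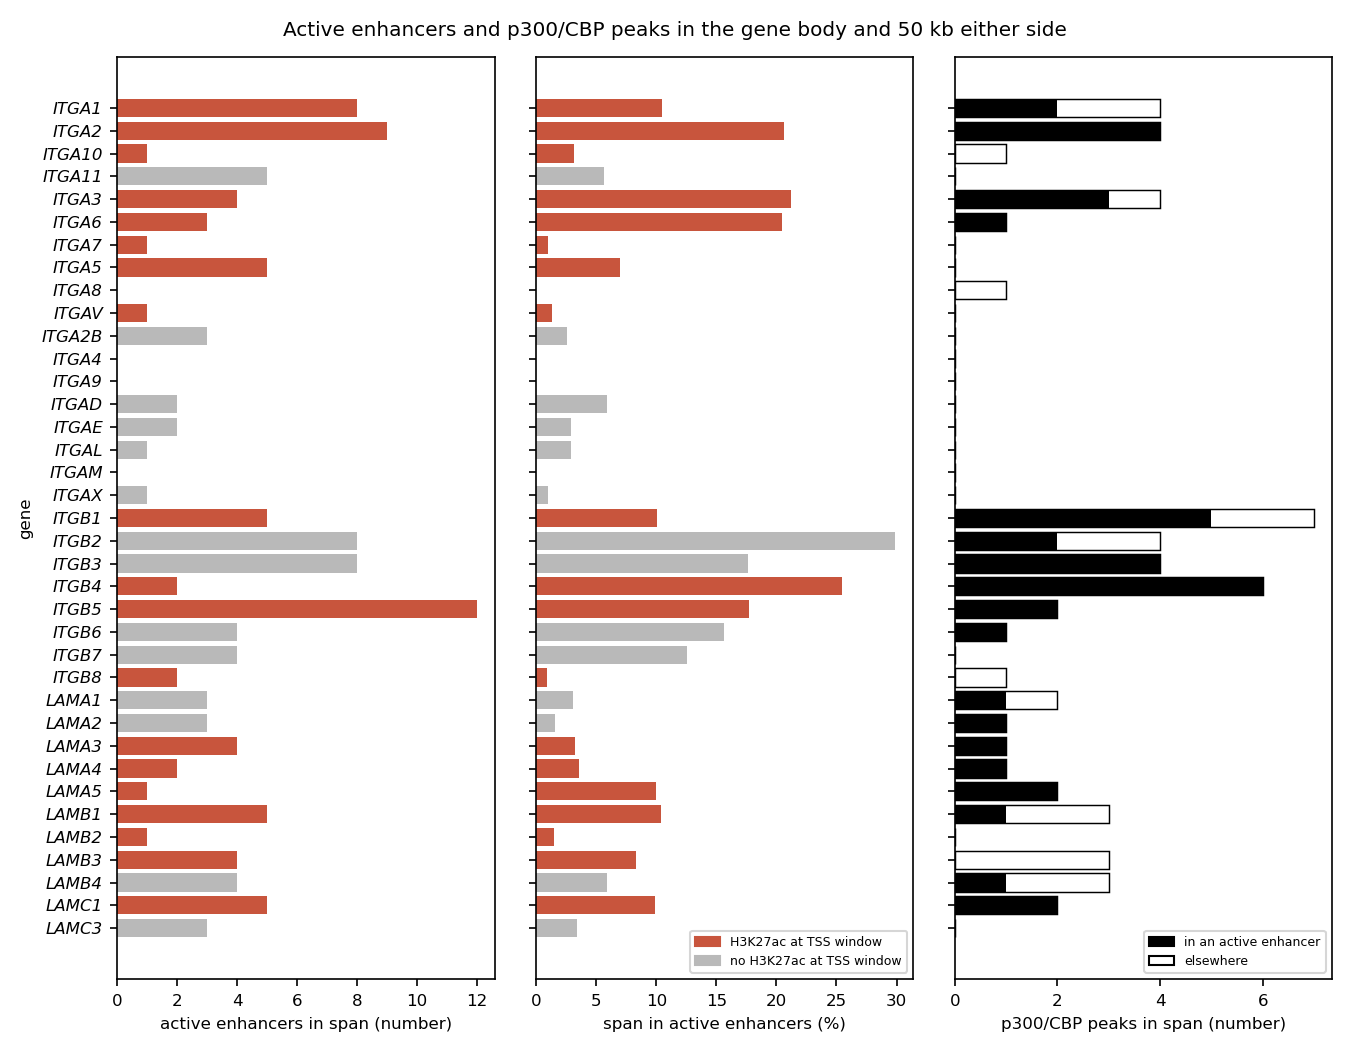
Number of cAEs (left), percent of the span inside cAEs (middle) and number of p300/CBP peaks (right) in the gene body and 50 kb either side, for the 37 genes. Red bars have H3K27ac at the canonical TSS window and grey bars do not; black bars count p300/CBP peaks in cAEs and white bars the other peaks. ITGB5 has the most cAEs (12), ITGB2 the largest share of span (29.9%) and ITGB1 the most p300/CBP peaks (7).

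ITGB5 (chr3:124480795-124620265, minus strand) had the most cAEs of the 37 genes, with 12, of which 10 lay in its own body. ITGA2 followed with 9, of which 8 lay in the body, and ITGA1, ITGB2 and ITGB3 had 8 each. ITGA5, ITGA11, ITGB1, LAMB1 and LAMC1 had 5 each. Neither ITGA11 nor ITGB3 had H3K27ac at its start. By share of the span, ITGB2 led with 29.9%, followed by ITGB4 (25.5%), ITGA3 (21.2%), ITGA2 (20.6%) and ITGA6 (20.5%). The percentiles of these 5 among all genes ran from 97.7 to 99.4. Only canonical promoter windows were kept out of cAEs, so the cAEs of ITGB2 took in H3K4me1 regions at its alternative starts, 7.97 kb upstream and 9.44 kb downstream. Its share without them was not computed.

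Some of these regions were wide. Of the 119 cAEs, 7 were at least 10 kb wide, or 5.88%, against 3.88% of all cAEs, and the median widths were 2950 and 2550 bp. The widest, 31100 bp long, lay from 43.4 to 12.3 kb upstream of ITGB4, overlapping the neighbouring gene SAP30BP. In ITGA6, a 26850-bp cAE began 2.09 kb downstream of the start and ran to 28.9 kb within the gene. ITGA3 had one of 16150 bp (2.28 to 18.4 kb downstream) and LAMA5 one of 15950 bp (1.52 to 17.5 kb downstream). ITGB6, without any list at its start, had one of 14100 bp from 15.7 to 1.57 kb upstream and a second of 11300 bp further upstream. These widths are of H3K4me1 and not of H3K27ac. In the ITGA3 and LAMA5 cAEs most H3K27ac belonged to the region at the start, which ran to 11.3 and 12.5 kb downstream. In the ITGA6 cAE H3K27ac lay in separate regions, the widest from 9.29 to 16.1 kb downstream.

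**Figure D5:**
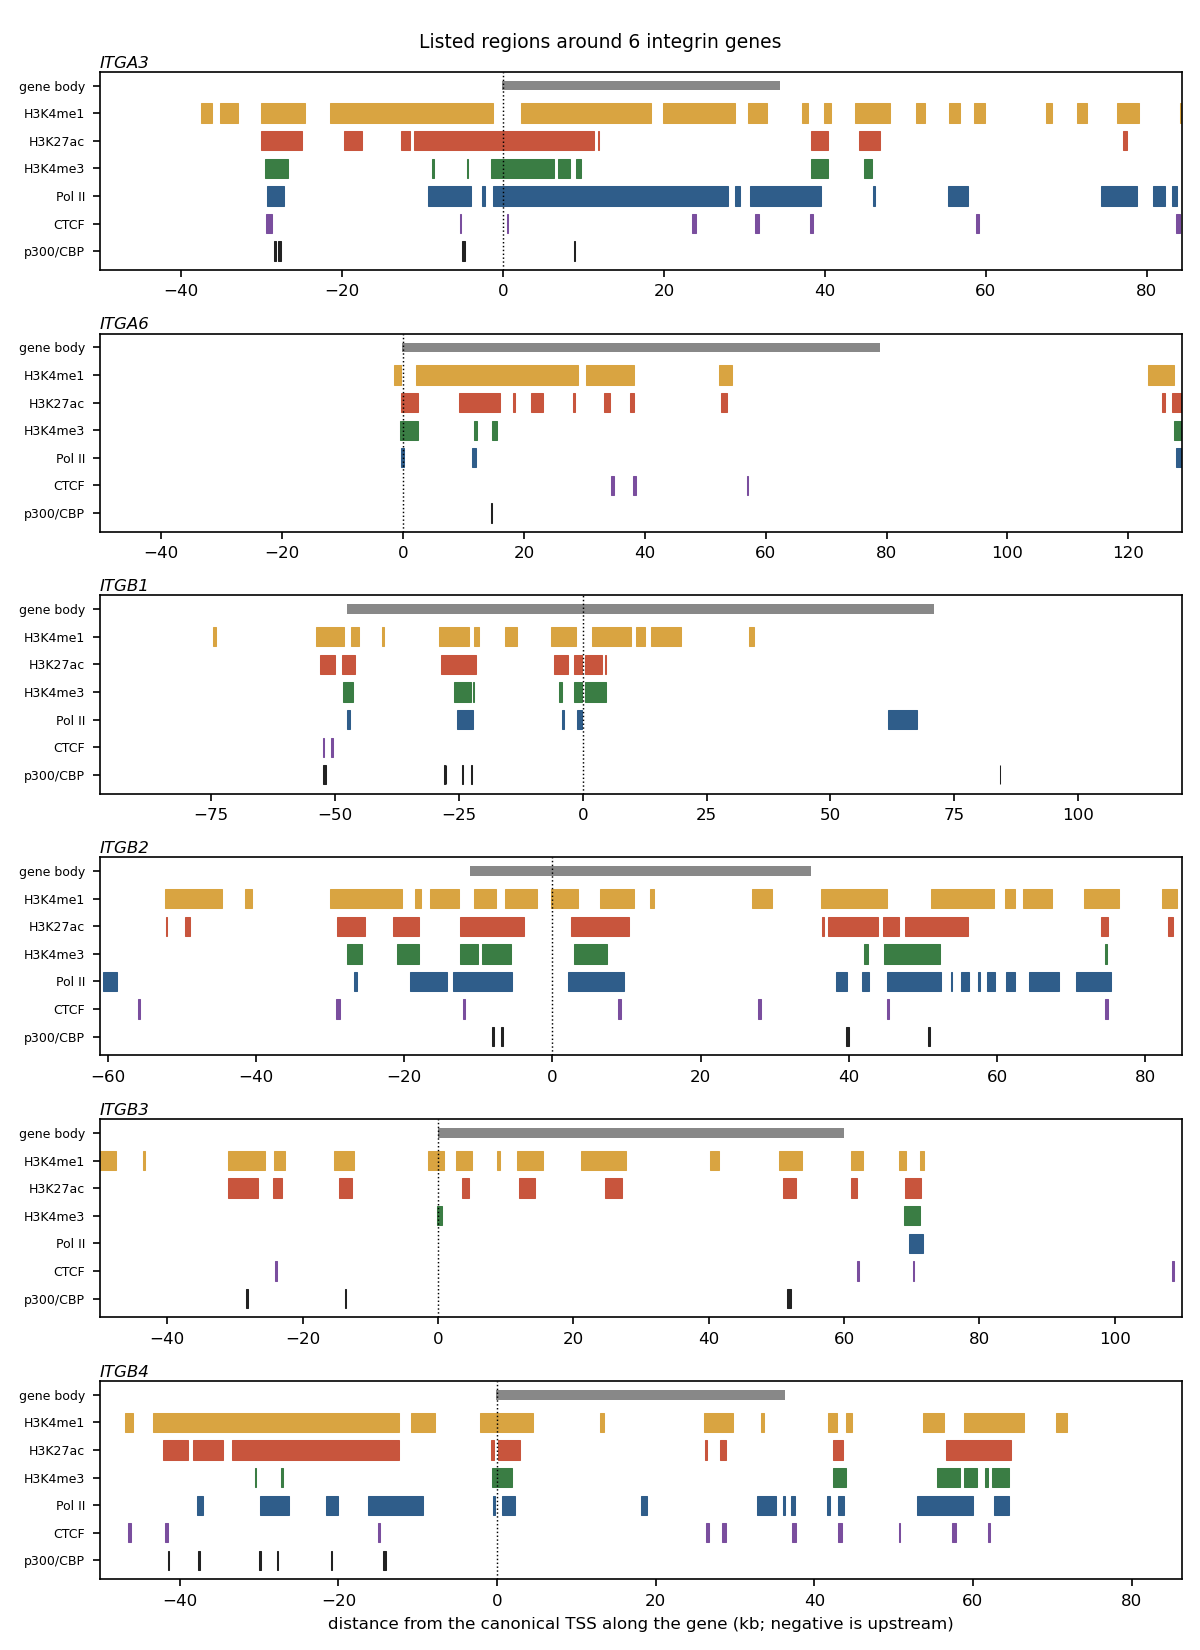
Regions of the 6 lists around ITGA3, ITGA6, ITGB1, ITGB2, ITGB3 and ITGB4 by distance from the canonical TSS (dotted line) in kb along the gene, with the gene body in grey. Pol II runs along ITGA3 and is absent from the ITGB3 body, the ITGB2 marks lie on both sides of its canonical TSS, and all 6 p300/CBP peaks of ITGB4 lie in 1 wide H3K4me1 region upstream.

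The cIEs were spread differently. The median was 2.35 per 100 kb of span, against 2.15 for all genes. LAMC1 had the most, with 20 beside 5 cAEs, followed by LAMA3, with 17 beside 4. LAMB3 had 14 beside 4. ITGA9, the alpha chain with H3K4me3 alone among the histone marks at its start, had 15 cIEs over its long span and no cAE, and its nearest cAE lay 160 kb from the start. ITGA8 had 1 cIE and its nearest cAE lay 372 kb away, and ITGA4 had neither in its span. ITGA6, by contrast, had no cIE and 3 cAEs.

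A p300/CBP peak lay inside a cAE of the span of 18 of the 37 genes, beside 17.9% of all genes. Among genes of 36.5 to 122 kb the count was 11 of 19, beside 21.6% of all 5543 genes of that length. It was 12 of the 19 genes with H3K27ac at the start (20.6% of all such genes) and 6 of the 18 without (13.7%). The part of length and of promoter state in these counts was not tested. In total 54 p300/CBP peaks fell in the spans, or 7.35 per Mb against 3.60 per Mb for all genes, and 38 of them lay in cAEs. Of the 54, 4 lay in the spans of 2 neighbouring members (ITGA1 and ITGA2, LAMB1 and LAMB4), so the 18 genes are not all separate loci. The 18 genes were ITGA1, ITGA2, ITGA3, ITGA6, ITGB1, ITGB2, ITGB3, ITGB4, ITGB5 and ITGB6 among the integrins, and 8 of the 11 laminin genes, all but LAMB2, LAMB3 and LAMC3. Of the 54 peaks, 9 were no more than 5 Mb from their chromosome's longest run of undetermined bases (those of ITGA1, ITGA2, ITGA10 and LAMA3). Without them the count of genes was 15 of 37.

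ITGB1 had the most p300/CBP peaks, 7, of which 5 lay in cAEs, and 6 of them lay upstream of the canonical start between 22.3 and 52.4 kb. ITGB4 had 6 peaks, all in its 31100-bp upstream cAE. ITGA2 and ITGB3 each had 4 peaks, all in cAEs, and those of ITGA2 lay inside the gene between 15.4 and 42.7 kb. The ITGB3 peaks lay 28.3 and 13.8 kb upstream and 51.6 and 51.8 kb downstream, around a promoter without H3K27ac. The 2 peaks of LAMC1 lay 116 and 140 kb downstream of its start.

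LAMB3 showed how the definition matters. It had 3 p300/CBP peaks, 0.830, 5.08 and 7.88 kb upstream of the start, but its 13700-bp H3K4me1 region reached the promoter window and so could not count as a cAE. Of ITGA3, 3 of 4 peaks lay in cAEs, 2 of them near 28 kb upstream and 1 in the gene 8.78 kb downstream. ITGB5 had peaks 8.06 and 26.6 kb downstream, LAMA5 7.57 and 9.87 kb downstream, and ITGA6 a single one 14.5 kb downstream, each inside the gene. The 1 peak of LAMA2 was the one at its downstream start, which counted in a cAE because only canonical windows were kept out of cAEs. That of LAMA4 lay 50.3 kb downstream. The only peak of LAMB4 in a cAE lay in the LAMB1 gene and was also the one counted for LAMB1.

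The 300 bases around the centre of 31 of the 54 p300/CBP peaks held TGANTCA (57.4%), against 38.3% of all 13983 peaks on these chromosomes for which sequence could be read. Within cAEs the order was the other way, 19 of 38 (50%) against 57.0% of all 7004 peaks. The sequences under 2 of these peaks, neither of which touches an annotated exon, are shown as examples because AP-1 factors were the subject of the study. The counts of p300/CBP peaks in cAEs rest on positions and not on sequence. They are the widest TGANTCA-bearing peaks in cAEs of ITGB5 (chr3:124597676-124597975, in an intron) and LAMA5 (chr20:60932251-60932500, in an intron). Both are given on the plus strand of hg19 with TGANTCA in capitals, and peaks wider than 300 bp are cut to the middle 300. The corresponding peak of ITGB4 lies on an exon of SAP30BP and is not shown.

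ITGB5: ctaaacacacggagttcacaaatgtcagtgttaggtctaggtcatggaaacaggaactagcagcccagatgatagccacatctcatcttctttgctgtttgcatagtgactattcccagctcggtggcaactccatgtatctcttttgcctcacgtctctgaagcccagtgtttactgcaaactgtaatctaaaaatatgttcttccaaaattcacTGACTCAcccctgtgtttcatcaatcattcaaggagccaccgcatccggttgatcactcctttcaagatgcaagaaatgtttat
LAMA5: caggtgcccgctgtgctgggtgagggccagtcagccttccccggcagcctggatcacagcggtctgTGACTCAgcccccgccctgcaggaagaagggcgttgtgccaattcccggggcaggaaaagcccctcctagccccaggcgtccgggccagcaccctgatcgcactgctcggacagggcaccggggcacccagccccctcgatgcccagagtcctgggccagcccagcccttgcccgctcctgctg

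CTCF peaks were also dense around these genes. The spans held 194, or 26.4 per Mb against 17.1 per Mb for all genes, and 39 of them lay in cAEs. CTCF overlapped 26.9% of the 119 cAEs, against 16.4% of all 24323. At the start, CTCF was listed for ITGA1, ITGA3, ITGA9, ITGA10, LAMA3, LAMB2 and LAMC1. The CTCF core motif was found in the 300 bases around the centre of 17.0% of the 194 peaks and of 17.1% of all CTCF peaks. Pol II overlapped 27.7% of the cAEs (21.0% of all), H3K4me3 40.3% (34.2% of all) and p300/CBP 21.8% (20.6% of all). LAMA5 had the most CTCF peaks in its span, 12, and ITGAV the fewest, 1.

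The partners of integrins and laminins were read from a list of 43 genes taken from general knowledge. The list was made with earlier results of these data known, so its shares are description only. Of these, 34 had H3K27ac at the start, beside 61.5% of all genes, and 33 had H3K4me3, beside 62.7%. A p300/CBP peak lay in a cAE of the span of 20, beside 17.9% of all genes. All 5 other laminin receptors (DAG1, BCAM, SDC1, SDC4 and RPSA) were marked by both. Of 22 adaptors and signalling genes 18 had H3K27ac, among them TLN1 and TLN2, the talins that activate integrins, VCL, which links talin to actin, and PTK2, the focal adhesion kinase, with 9 p300/CBP peaks in cAEs. PARVB, PARVG, TNS1 and LIMS2 had no H3K27ac at the start. Of 16 other matrix ligands 11 had H3K27ac, including FN1, COL4A1, COL4A2, AGRN and HSPG2, while the nidogen genes NID1 and NID2, which tie laminin to collagen IV, had none. CCN1, a matrix protein that binds integrins, had 7 p300/CBP peaks in cAEs and 46.3% of its span inside cAEs.

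The label of the line was set beside marker genes, which were also chosen with earlier results of these data known. All 5 basal B or mesenchymal markers (VIM, CD44, CAV1, ZEB1 and EGFR) had H3K27ac and H3K4me3 at the start. Of 5 luminal markers, FOXA1 and ERBB3 had H3K27ac and ESR1, PGR and GATA3 did not. None of 4 leukocyte markers (PTPRC, CD3E, MS4A1 and CD14) had H3K27ac at the start, as was so for the leukocyte integrin genes at their canonical starts. The span of PTPRC nevertheless held 6 cAEs, with 5 p300/CBP peaks in cAEs. That of CD3E held 2 cAEs, and those of MS4A1 and CD14 held 0. GP1BA and PF4, of platelets, had no H3K27ac, as was so for ITGA2B. GP1BA did have H3K4me1 and Pol II at its start, and 49.8% of its body lay under Pol II. CDH5, of endothelium, had H3K27ac without H3K4me3.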

How the data were processed

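Chromatin of MDA-MB-231 cells had been immunoprecipitated and sequenced with 6 antibodies. The reads were aligned to hg19 (BWA-backtrack in the methods of the study, Bowtie2 in the submitters' processing notes), and the authors made signals with PASHA, at a bin size of 50 bp. They merged the 2 replicates, then called regions above a threshold with the Integrated Genome Browser. The deposited values used here are start and end positions in bp only, from which no signal or depth can be read. They were mapped by the antibody named in the name of each deposited list, and 0 columns of values were left unmapped.

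Genes and starts came from GENCODE release 44 on GRCh37, in place of RefSeq. Positions were compared with Python 3.11.15 and NumPy 2.4.6, by functions checked on simulated data, and drawn with matplotlib 3.10.9. Members, pathway, marker and complex lists were chosen with earlier results of these data known. Another 1 gene that the naming rule takes in, 1 marker and some sequences are not reported here. Those described in depth are the 10 with the most cAEs, those with p300/CBP in a cAE, those with another mark but no H3K27ac at the start, and those with several marked starts. Sequences were shown for the widest p300/CBP peaks with TGANTCA of 2 genes and for 1 promoter. Windows, flanks, starts, region widths and overlaps were varied.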

Additional observations from a re-analysis of the deposited data

How the results depend on the processing

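No paired analysis was possible because each list came from replicates that had already been merged. Leaving out a replicate was not possible either. Of 56 alternative values for 14 results, 46 stayed within 1.5 times the value reported. With a window of 1 kb in place of 3 kb, 13 genes had H3K4me1 at the start (25 reported) and 0 had p300/CBP (1 reported). With all starts of basic transcripts, 3 genes had p300/CBP at a start. When regions narrower than their list's median width were dropped, in place of a stricter threshold that positions alone do not allow, Pol II was left at 11 starts (19 reported), CTCF at 1 (7), p300/CBP at 0 (1), and 66 cAEs remained of 119. The gene body alone held 68 cAEs and 30 p300/CBP peaks (54 reported), and 56 cAEs were at least 50% covered by H3K27ac. Under that 50% rule 23 genes had a cAE (33 reported). The count of 54 p300/CBP peaks could not move under it, because it does not use cAEs. These settings use shorter spans, fewer regions or more starts by construction. Leaving out the p300/CBP peaks up to 5 Mb from the longest run of undetermined bases, which was chosen after seeing the data, left 45 peaks and 15 genes with one in a cAE. Widths depend on the authors' thresholds and are not signal. Region lists from 1 line without depth cannot show how far a missing mark lies below the threshold.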
